A study of Homo sapiens with 6 samples.

Results

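The genes described here are 46 human genes that make, consume or read diacylglycerol (DAG) and phosphatidate, the lipids around the substrate of diacylglycerol lipase alpha (DAGLA). They were chosen by symbol for their enzyme or effector family, with earlier results of these data known. They comprise 9 phospholipases C, 2 phospholipases D, 6 diacylglycerol kinases, 7 lipins and lipid phosphate phosphatases, 7 acyltransferases that build phosphatidate, 2 diacylglycerol acyltransferases, 4 genes of triglyceride and DAG breakdown, 4 genes that lead to phospholipids and 5 protein kinase C isoforms. All 46 were found among the 29908 genes of the expression table.

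DAG stands at a branch point between signalling and fat. Phospholipase C releases it from membrane phosphoinositides together with inositol trisphosphate, and DAG then draws several protein kinase C isoforms to the membrane, whereas the atypical isoforms do not need it. Diacylglycerol kinases phosphorylate DAG to phosphatidate, and lipins and lipid phosphate phosphatases turn phosphatidate back into DAG. In liver cells the same lipids are intermediates of triglyceride and phospholipid synthesis, and DAGLA cleaves DAG to the endocannabinoid 2-arachidonoylglycerol.

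The cells were Hep3B, a long-established line from a human hepatocellular carcinoma. Hep3B-KD cells received a lentivirus with a short hairpin RNA against DAGLA at a multiplicity of infection of 5, and Hep3B-Con cells received a control lentivirus, which the sample titles call shControl and the series description an empty vector. Both were put under puromycin, so both groups share transduction and drug selection, and the medium is DMEM in the sample records and MEM-alpha in the study's methods. Each group had 3 libraries, described as biological replicates, of 1 cell line and 1 hairpin, so that effects of the hairpin other than those through DAGLA cannot be told apart from the knockdown.

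Levels are FPKM, reads scaled to the exon length of a gene and to the reads of its library, and between 15861039 and 17572714 reads stood behind a library. Differences were tested with limma on log2(FPKM + 0.1) in the 14221 genes whose mean over the 6 libraries reached 0.5 FPKM. A positive log2 fold change means a higher level in Hep3B-KD, and the added 0.1 makes changes of genes at low FPKM look smaller than they are. A gene is said to rise or fall where its adjusted p (limma, Benjamini-Hochberg over all genes tested) was under 0.05. Over all genes tested the median difference was 0.11 on the log2 scale, and it was 0.0059 with the libraries centred on their median log ratio. That centring gave 48.5% of the called genes as higher, against 60.2% without it. All 8 hepatocyte markers were detected, with a summed level of 2527 to 2577 FPKM in Hep3B-Con and of 4053 to 4072 FPKM in Hep3B-KD, most of it ALB. FGB went the other way, from 19.5 to 9.96 FPKM. The 6 measured fibroblast and stellate cell markers summed to 9.28 to 10.2 and to 5.48 to 5.96 FPKM, with COL3A1 and DCN at 3 or fewer reads in every library. Of 4 endothelial markers, VWF, CDH5 and KDR were at 3 or fewer reads, and the list summed to 0.194 to 0.217 and to 0.278 to 0.385 FPKM. The 3 measured leukocyte markers summed to 2.08 to 3.19 and to 3.04 to 4.04 FPKM, most of it LYZ. The hepatocyte, fibroblast and endothelial sums did not overlap between the groups, and the part of these lists in the values of the members was not tested. In bulk RNA, fewer cells of a type and less RNA per cell cannot be told apart.

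The target of the hairpin was measured first. DAGLA stood at 9.42, 9.40 and 9.02 FPKM in the Hep3B-Con libraries and at 4.62, 4.46 and 4.78 FPKM in the Hep3B-KD libraries. The groups did not overlap, and the log2 fold change was -0.99 (SE 0.0441, adjusted p = 5.25e-06, limma with Benjamini-Hochberg adjustment). The target site and the guide strand are shown because bases 2 to 8 of a guide, its seed, can also pair with other transcripts. The guide was taken as the reverse complement of the listed 19-base target, and its processed ends are not given in the sources used here. Capitals mark the seed in the guide and its match in the target, and the target occupies bases 2011 to 2029 of transcript DAGLA-201, within its coding sequence, and matched no other gene exactly.
shDAGLA target: gcgacaacaagGCCTTCAa
guide strand: tTGAAGGCcttgttgtcgc

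Of the 46 members 40 passed the filter on low values, and 29 of these were called, which is 72.5% beside 59.9% of all genes tested. Of the 29, 19 rose (36.1% of all genes rose) and 10 fell (23.8% of all genes fell). Centred on the median log ratio, 16 members rose and 12 fell, beside 4064 and 4308 of the 14221 genes tested. Under quantile normalization 15 members rose and 11 fell, beside 4270 and 3902 of all genes tested. The median log2 fold change of the 40 was 0.17 and their median absolute change was 0.37, beside 0.35 for all genes tested. A change of at least 2-fold was reached by 3 of the 40 (8.83% of all genes), LPIN1 and PRKCA as rises (5.89% of all genes) and PLCD3 as a fall (2.94% of all genes). With a pseudocount of 1 and under quantile normalization LPIN1 stayed under 2-fold, at 0.64 and 0.93 on the log2 scale. In 33 of the 40 members the libraries of the groups did not overlap, beside 66.9% of all genes tested. Hep3B-KD lay above in 21 of them (40.7% of all genes) and below in 12 (26.3% of all genes). With 3 libraries a group an exact permutation test of a single gene cannot give a two-sided p under 0.1.

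**Figure D1:**
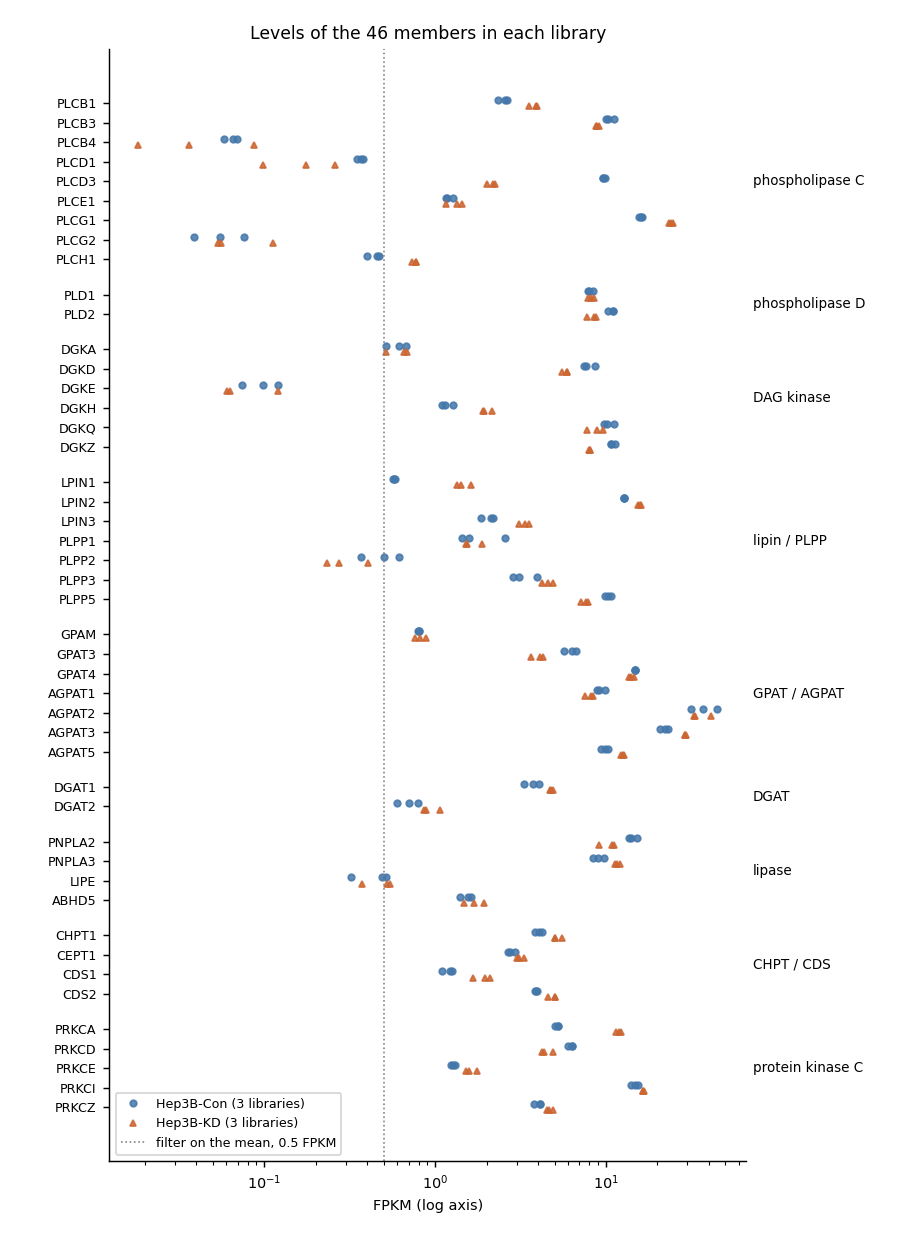
FPKM (log axis) of the 46 members in each of the 6 libraries, ordered by family, with circles for Hep3B-Con, triangles for Hep3B-KD and a dotted line at the filter of 0.5 FPKM on the mean. PLCD3 shifted to the left by the widest step among the members tested, LPIN1 and PRKCA shifted to the right, and 6 members with a mean under the filter lie at the left.

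The plot of levels spans mean values from 0.0560 FPKM for PLCB4 to 36.7 FPKM for AGPAT2. The members under the filter were PLCB4, PLCD1, PLCG2, DGKE, PLPP2 and LIPE, the last the gene of hormone-sensitive lipase. With no filter on low values their log2 fold changes ranged from -0.78 for PLCD1 to 0.14 for PLCG2, and none had an adjusted p under 0.05 (limma, Benjamini-Hochberg), with 0.128 for PLCD1 the lowest. PLCD1 stood at 0.347 to 0.376 FPKM in Hep3B-Con and at 0.0978 to 0.260 FPKM in Hep3B-KD, so its groups did not overlap.

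**Figure D2:**
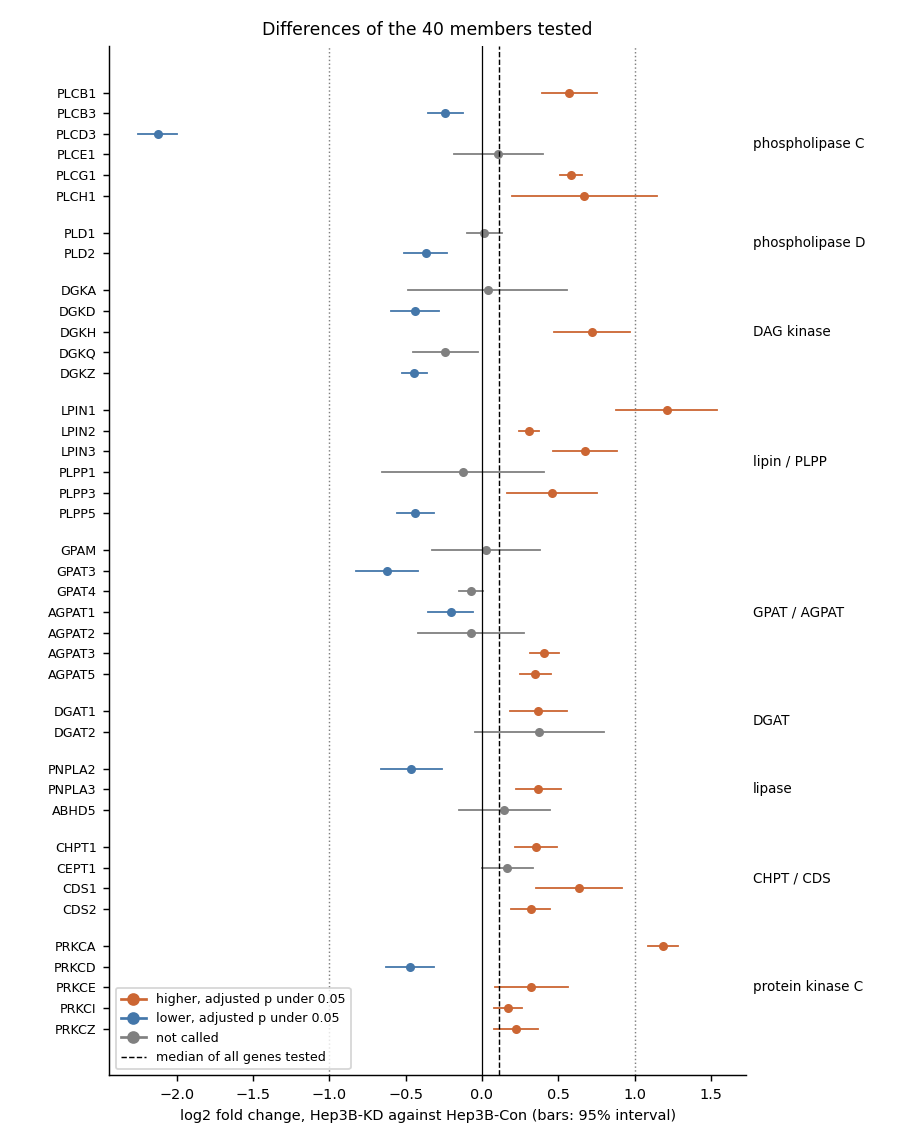
Log2 fold change of the 40 members tested, Hep3B-KD against Hep3B-Con, with 95% intervals from limma, coloured by call. The solid line marks 0, the dashed line the median of all genes tested (0.11) and the dotted lines a 2-fold change. PLCD3 lies beyond the line on the left, LPIN1 and PRKCA beyond that on the right.

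The phospholipases C, which release DAG for signalling, changed in opposite directions. PLCD3, a phosphoinositide-specific isoform of the delta class, was at 9.86, 9.61 and 9.56 FPKM in Hep3B-Con and at 2.17, 2.24 and 2.02 FPKM in Hep3B-KD. Every Hep3B-KD library was far below every control library, and within each group the values lay close together. The gene (ENSG00000161714, GRCh38 chr17:45108967-45133354, minus strand) fell by 2.13 on the log2 scale, 4.37-fold (SE 0.0529, adjusted p = 5.62e-07, limma), the widest change among the members tested. PLCG1, the gamma isoform that receptor tyrosine kinases activate and the most abundant phospholipase C here, went the other way. It measured 15.6, 16.2 and 16.1 FPKM in Hep3B-Con and 24.6, 23.5 and 24.0 FPKM in Hep3B-KD. Its groups were well apart, and it rose by 0.58 on the log2 scale (SE 0.0301, adjusted p = 9.32e-06, limma).

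Among the beta isoforms, which G proteins of the Gq class activate, PLCB1 rose from 2.51 ± 0.156 to 3.78 ± 0.228 FPKM (SD, n = 3 each, log2 fold change 0.57, adjusted p = 0.000617, limma). PLCB3 fell from 10.5 ± 0.582 to 8.86 ± 0.181 FPKM (SD, n = 3 each, log2 fold change -0.24, adjusted p = 0.00453, limma). PLCH1, an eta isoform, rose by 0.67, from 0.441 ± 0.0388 to 0.759 ± 0.0243 FPKM (SD, n = 3 each, adjusted p = 0.0244, limma). Its mean in Hep3B-Con was under the filter. The call of PLCH1 was lost without Hep3B-Con replicate 1 (adjusted p = 0.0585, limma) and without Hep3B-KD replicate 1, 2 or 3 (0.0682, 0.0667 and 0.0542), and also under quantile normalization (0.187). PLCE1, which also binds Ras, was not called, at 0.11 with an interval of -0.18 to 0.40.

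Summed over the 9 phospholipases C, the level was 40.8 ± 0.492 FPKM in Hep3B-Con and 41.2 ± 0.573 FPKM in Hep3B-KD (SD, n = 3 each), while the make-up of the sum differed. PLCD3 gave 23.7% ± 0.105 of it in Hep3B-Con and 5.21% ± 0.295 in Hep3B-KD. PLCG1 gave 39.2% ± 1.21 and 58.3% ± 0.573. The ratio of PLCG1 to PLCD3 was 1.59 to 1.69 in the Hep3B-Con libraries and 10.5 to 11.9 in the Hep3B-KD libraries. These sums and shares were given after the single values had been seen, as a description with no test.

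**Figure D3:**
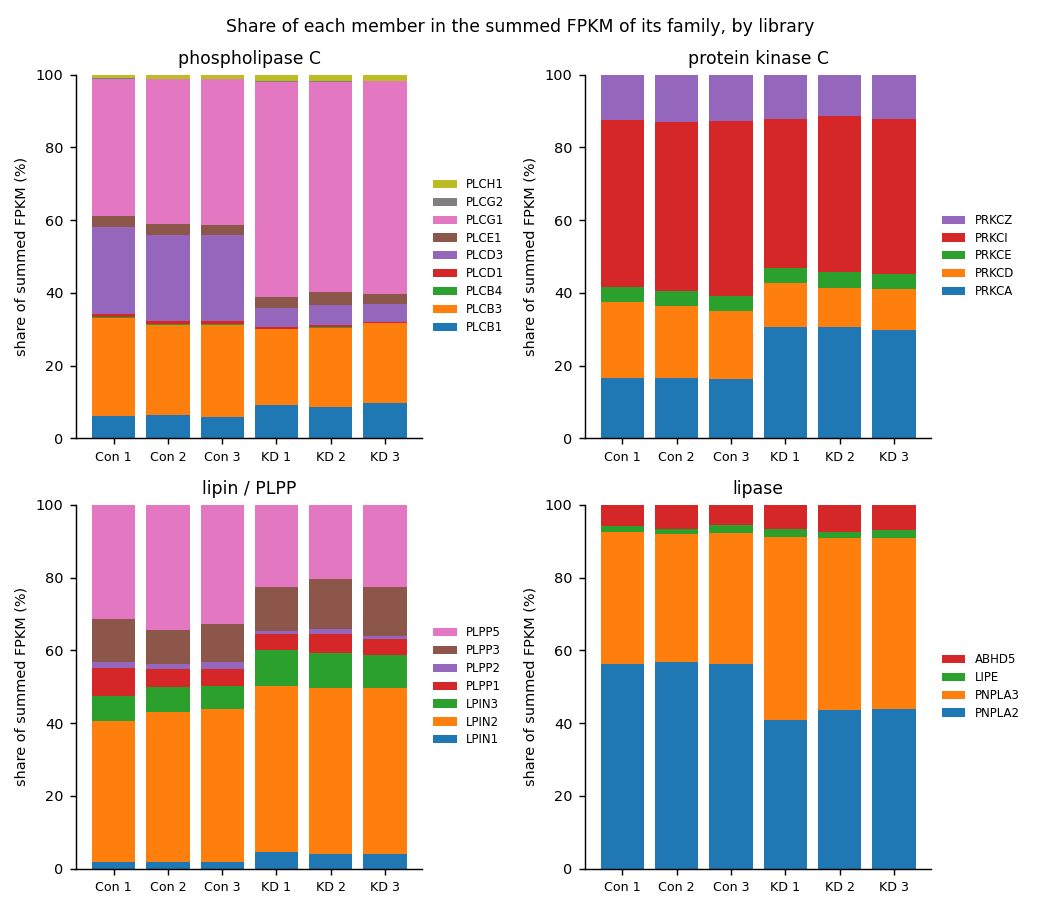
Share (percent) of each member in the summed FPKM of its family, 1 stacked bar for each library, for phospholipase C, protein kinase C, the lipins with lipid phosphate phosphatases, and the lipases. The PLCD3 segment shrank from about 23.7% to 5.21%, the PRKCA segment grew from 16.5% to 30.4%, and PNPLA3 rather than PNPLA2 is the wider lipase segment in the 3 Hep3B-KD bars.

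The phospholipases D make phosphatidate directly from phosphatidylcholine. PLD2 measured 11.04, 10.24 and 11.01 FPKM in Hep3B-Con and 8.461, 7.732 and 8.791 FPKM in Hep3B-KD. No Hep3B-KD library reached a control library, and PLD2 fell by 0.37 on the log2 scale (SE 0.0585, adjusted p = 0.00161, limma). PLD1 had 8.08 ± 0.271 and 8.17 ± 0.366 FPKM (SD, n = 3 each), and was not called, with an interval of -0.098 to 0.13 on the log2 scale. The share of PLD2 in their sum was 57.1% ± 1.86 in Hep3B-Con and 50.5% ± 1.22 in Hep3B-KD.

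The diacylglycerol kinases, which remove DAG and make phosphatidate, had a summed level of 31.0 ± 1.13 FPKM in Hep3B-Con and of 25.3 ± 0.942 FPKM in Hep3B-KD (SD, n = 3 each). DGKZ, the zeta isoform, fell from 10.9 ± 0.308 to 8.01 ± 0.0382 FPKM (SD, n = 3 each, log2 fold change -0.44, adjusted p = 5.57e-05, limma). DGKD, the delta isoform, also fell by 0.44, from 7.87 ± 0.652 to 5.77 ± 0.189 FPKM (adjusted p = 0.00123, limma). DGKH, the eta isoform and a close relative of DGKD, rose from 1.15, 1.27 and 1.10 FPKM to 2.16, 1.94 and 1.89 FPKM. Its groups were clearly apart, with a log2 fold change of 0.72 (SE 0.103, adjusted p = 0.000938, limma).

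DGKQ, the theta isoform, had the highest mean over all 6 libraries in this family, although DGKZ was higher in Hep3B-Con. DGKQ measured 11.2, 10.1 and 9.76 FPKM in Hep3B-Con and 7.78, 9.63 and 8.90 FPKM in Hep3B-KD. The highest Hep3B-KD value came close to the lowest control value without reaching it. The log2 fold change of -0.24 did not pass (adjusted p = 0.0531, limma), with an interval of -0.45 to -0.028, and DGKQ was called lower in 5 of 16 alternatives. These were leaving out Hep3B-KD replicate 2 (adjusted p = 0.0251), voom on the recovered reads (0.00382), the filter of 1 FPKM (0.0459), centring on the median log ratio (0.0144) and quantile normalization (0.0266). DGKA, the alpha isoform, was low in both groups, at 0.602 ± 0.0828 and 0.621 ± 0.0887 FPKM (SD, n = 3 each), with an interval of -0.48 to 0.56. Of its exonic bases, 3.46% overlap PYM1 on the opposite strand, which had a mean of 19.4 FPKM. Whether reads were counted by strand is not given.

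The 3 lipins, the phosphatidate phosphatases of triglyceride synthesis, all rose, beside 36.1% of all genes tested. LPIN1 was at 0.581, 0.572 and 0.567 FPKM in Hep3B-Con and at 1.62, 1.42 and 1.35 FPKM in Hep3B-KD. The control libraries were nearly equal, and each Hep3B-KD library was above all of them. LPIN1 (ENSG00000134324, GRCh38 chr2:11677595-11827409, plus strand) rose by 1.21 on the log2 scale, 2.31-fold (SE 0.139, adjusted p = 0.000328, limma), the largest rise among the members tested. LPIN3 rose by 0.67, from 2.05 ± 0.177 to 3.33 ± 0.211 FPKM (SD, n = 3 each, adjusted p = 0.000618, limma). LPIN2, by far the most abundant lipin in these cells, measured 12.8, 12.8 and 12.7 FPKM in Hep3B-Con and 15.9, 16.0 and 15.5 FPKM in Hep3B-KD. The step was small beside that of LPIN1 but much wider than the spread within either group, with a log2 fold change of 0.31 (SE 0.0279, adjusted p = 0.000109, limma). The ratio of LPIN2 to LPIN1 was 22.1 to 22.4 in Hep3B-Con and 9.81 to 11.5 in Hep3B-KD.

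The lipid phosphate phosphatases are membrane proteins that act on phosphatidate and related lipids, and they did not share a direction. PLPP5 fell from 10.3 ± 0.387 to 7.57 ± 0.378 FPKM (SD, n = 3 each, log2 fold change -0.44, adjusted p = 0.000348, limma). PLPP3 rose by 0.46, from 3.32 ± 0.572 to 4.56 ± 0.333 FPKM (SD, n = 3 each, adjusted p = 0.0168, limma). The call of PLPP3 was lost without Hep3B-Con replicate 3 (adjusted p = 0.0543) and without Hep3B-KD replicate 2 (0.0565), and under quantile normalization (0.0722). PLPP1 was not called, with 2.57, 1.57 and 1.43 FPKM in Hep3B-Con and 1.53, 1.88 and 1.53 FPKM in Hep3B-KD. Its first control library stood above the others, and without that library the log2 fold change turned from -0.12 to 0.12. Of the exonic bases of PLPP1, 23.9% overlap those of MTREX on the opposite strand, which had a mean of 10.4 FPKM, and whether reads were counted by strand is not given in the sources used here. LPIN2 and PLPP5 together made up most of the family, and their ratio was 1.20 to 1.28 in Hep3B-Con and 2.01 to 2.24 in Hep3B-KD.

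The acyltransferases that build phosphatidate from glycerol-3-phosphate had summed levels of 100.6 ± 4.61 and 104.4 ± 6.10 FPKM (SD, n = 3 each). GPAT3, an acyltransferase of the endoplasmic reticulum for the initial step, had 5.71, 6.29 and 6.64 FPKM in Hep3B-Con and 3.62, 4.31 and 4.10 FPKM in Hep3B-KD. All Hep3B-KD values were below the control values, and GPAT3 fell by 0.62 on the log2 scale (SE 0.0846, adjusted p = 0.000769, limma). Of the same step, GPAM and GPAT4 were not called. GPAM, a mitochondrial form, had 0.802 ± 0.00670 and 0.821 ± 0.0632 FPKM with an interval of -0.33 to 0.38, and GPAT4 had 14.8 ± 0.0231 and 14.1 ± 0.485 FPKM with an interval of -0.15 to 0.0093 on the log2 scale. GPAT4 was called lower without Hep3B-KD replicate 2 (adjusted p = 0.0459, limma) and after centring on the median log ratio (0.00376).

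In the next step, from lysophosphatidate to phosphatidate, AGPAT3 rose from 22.0 ± 1.10 to 29.2 ± 0.133 FPKM (SD, n = 3 each, log2 fold change 0.41, adjusted p = 0.000134, limma). AGPAT5 rose by 0.35, from 9.82 ± 0.446 to 12.5 ± 0.223 FPKM (adjusted p = 0.000411, limma). AGPAT1 fell by 0.21, from 9.30 ± 0.542 to 8.05 ± 0.465 FPKM (adjusted p = 0.0244, limma). That call was lost without Hep3B-Con replicate 2 (adjusted p = 0.0690) and without Hep3B-KD replicate 1 or 3 (0.0669 and 0.0502). Of the exonic bases of AGPAT1, 29.9% overlap PPT2-EGFL8 on the opposite strand, which had a mean of 0.164 FPKM. AGPAT2, the most abundant of the 46 genes and the one lost in a form of congenital lipodystrophy, measured 44.8, 31.5 and 36.9 FPKM in Hep3B-Con and 33.0, 41.4 and 32.8 FPKM in Hep3B-KD. The libraries of both groups were interleaved, and the interval of its log2 fold change ran from -0.42 to 0.27.

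DGAT1 and DGAT2 esterify DAG to triglyceride. DGAT1 was at 3.73, 4.04 and 3.32 FPKM in Hep3B-Con and at 4.75, 4.69 and 4.93 FPKM in Hep3B-KD. Its groups did not overlap, and it rose by 0.37 on the log2 scale (SE 0.0777, adjusted p = 0.00584, limma). HSF1, with a mean of 16.2 FPKM, overlaps 3.36% of the exonic bases of DGAT1 on the opposite strand. DGAT2 differed by a similar 0.38 but was not called (adjusted p = 0.110, limma, interval -0.048 to 0.80), at 0.702 ± 0.0994 and 0.940 ± 0.112 FPKM (SD, n = 3 each). It was called higher with voom on the recovered reads (adjusted p = 0.0176) and with eBayes without the trend (0.0451).

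The genes of triglyceride breakdown had a summed level of 25.3 ± 1.55 FPKM in Hep3B-Con and of 24.2 ± 1.62 FPKM in Hep3B-KD (SD, n = 3 each), and their 2 main members moved in opposite directions. PNPLA2, adipose triglyceride lipase, was at 15.2, 13.6 and 14.1 FPKM in Hep3B-Con and at 9.15, 11.2 and 10.8 FPKM in Hep3B-KD. PNPLA3, a lipid droplet protein known for its link to fatty liver, was at 9.70, 8.35 and 9.03 FPKM in Hep3B-Con and at 11.3, 12.1 and 11.6 FPKM in Hep3B-KD. PNPLA2 was the higher of the pair in each control library and PNPLA3 in each Hep3B-KD library, with ratios of PNPLA3 to PNPLA2 of 0.615 to 0.641 and of 1.08 to 1.23. PNPLA2 fell by 0.46 on the log2 scale (SE 0.0824, adjusted p = 0.00274, limma), and PNPLA3 rose by 0.37 (SE 0.0607, adjusted p = 0.00186, limma). Of the exonic bases of PNPLA3, 4.58% overlap SAMM50 on the same strand, which had a mean of 11.8 FPKM. ABHD5, the activator of adipose triglyceride lipase, was not called, at 1.52 ± 0.115 and 1.70 ± 0.230 FPKM (SD, n = 3 each) with an interval of -0.15 to 0.45 on the log2 scale.

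The genes that lead from DAG and phosphatidate to phospholipids had positive log2 fold changes, except that CEPT1 turned negative under quantile normalization, and 3 of 4 were called higher, beside 36.1% of all genes tested. CHPT1, choline phosphotransferase, had 4.20, 4.05 and 3.86 FPKM in Hep3B-Con and 5.05, 5.50 and 5.04 FPKM in Hep3B-KD. All Hep3B-KD libraries were above the controls, with a log2 fold change of 0.36 (SE 0.0579, adjusted p = 0.00179, limma). CDS1 and CDS2, which make CDP-diacylglycerol for phosphoinositide synthesis, rose by 0.64 (adjusted p = 0.00320, limma) and by 0.32 (adjusted p = 0.00199, limma). CDS1 went from 1.19 ± 0.0827 to 1.91 ± 0.214 FPKM and CDS2 from 3.89 ± 0.0427 to 4.88 ± 0.247 FPKM (SD, n = 3 each). CEPT1, which uses both choline and ethanolamine donors, was at 2.79 ± 0.147 and 3.15 ± 0.158 FPKM (log2 fold change 0.17, adjusted p = 0.0753, limma). It was called higher with voom on the recovered reads (adjusted p = 0.0419) and after rescaling to the same FPKM sum (0.0475).

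All 5 protein kinase C isoforms among the members, the effectors in the list, were called, 4 higher and 1 lower, beside 36.1% and 23.8% of all genes tested. Centring on the median log ratio left PRKCA as the 1 rise called. A further isoform, PRKCH, is not a member and was tested among the other pathway genes. PRKCH was called lower, with a log2 fold change of -0.80, at 1.185 ± 0.178 and 0.647 ± 0.188 FPKM (SD, n = 3 each, adjusted p = 0.0202, limma). PRKCA, the conventional alpha isoform that responds to DAG and calcium, was at 5.05, 5.23 and 5.22 FPKM in Hep3B-Con and at 12.3, 11.9 and 11.5 FPKM in Hep3B-KD. Each Hep3B-KD library held more than any control by a wide margin. PRKCA (ENSG00000154229, GRCh38 chr17:66302636-66810743, plus strand) rose by 1.19 on the log2 scale, 2.28-fold (SE 0.0409, adjusted p = 1.96e-06, limma). PRKCD, the delta isoform, which responds to DAG without calcium, was at 6.35, 6.34 and 6.03 FPKM in Hep3B-Con and at 4.88, 4.22 and 4.33 FPKM in Hep3B-KD. It was lower in every Hep3B-KD library and fell by 0.47 (SE 0.0652, adjusted p = 0.000809, limma). The ratio of PRKCA to PRKCD was 0.795 to 0.865 in the control libraries and 2.52 to 2.83 in the Hep3B-KD libraries.

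PRKCI, the atypical iota isoform of polarity complexes and the most abundant of the family, had 14.0, 14.7 and 15.3 FPKM in Hep3B-Con and 16.5, 16.7 and 16.4 FPKM in Hep3B-KD. The groups did not overlap, yet the step was small at 0.17 on the log2 scale (adjusted p = 0.00869, limma), and the call was lost after centring on the median log ratio (0.188). PRKCZ, the other atypical isoform, rose by 0.22, from 4.01 ± 0.203 to 4.69 ± 0.205 FPKM (SD, n = 3 each, adjusted p = 0.0164, limma). Its call was lost without Hep3B-KD replicate 1 (adjusted p = 0.0540), after centring (0.130) and under quantile normalization (0.280). FAAP20, with a mean of 3.30 FPKM, overlaps 7.73% of the exonic bases of PRKCZ on the opposite strand. PRKCE, the epsilon isoform, which also responds to DAG without calcium, rose by 0.32, from 1.27 ± 0.0318 to 1.62 ± 0.127 FPKM (SD, n = 3 each, adjusted p = 0.0285, limma). Its call was lost in 9 of 16 alternatives, which include leaving out Hep3B-Con replicate 1, 2 or 3 (adjusted p = 0.0742, 0.0675 and 0.0554) and Hep3B-KD replicate 1 or 2 (0.0588 and 0.0934). Summed over the 5 isoforms the level was 31.4 ± 0.863 FPKM in Hep3B-Con and 39.2 ± 0.886 FPKM in Hep3B-KD, and PRKCA gave 16.5% ± 0.156 and 30.4% ± 0.385 of it.

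**Figure D4:**
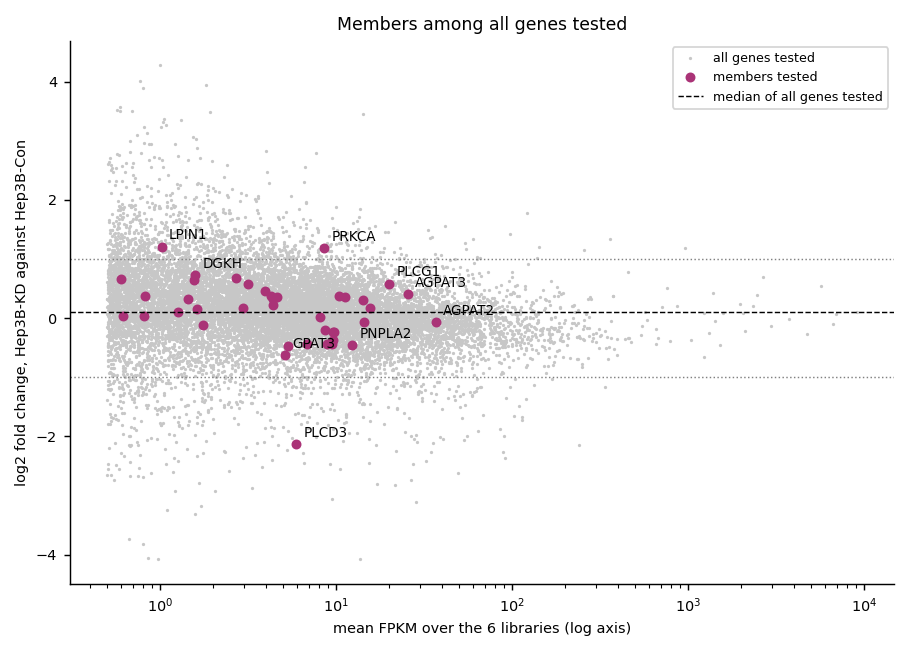
Log2 fold change against mean FPKM over the 6 libraries (log axis) for the 14221 genes tested (grey) and the 40 members tested (purple). The dashed line is the median of all genes (0.11) and the dotted lines mark a 2-fold change. PLCD3 lies below the dotted line at -1, LPIN1 and PRKCA above that at 1, while most members lie within the bulk of the grey points.

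Against all genes tested, as the plot of change against level shows, the tested members other than PLCD3, LPIN1 and PRKCA lay within a 2-fold change. The members tested had at least 48 reads in every library and at most 5443.

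Sequence that could pair with the seed of the assumed guide was looked for in the longest annotated 3' UTR of each gene, as the letters GCCTTCA in the sense strand. Such matches were found in 6 of 46 members (13.0%), in 4 of the 40 members tested (10.0%) and in 14.6% of the 11189 genes tested with such a 3' UTR. None of the 10 members that fell held one, PLCD3 included. Of the 19 that rose, DGKH, PLCB1 and DGAT1 held one. PLCE1, which was not called, and PLCD1, which was under the filter, also held one. A match of letters is a description and not a site of action. The sites of DGKH, PLCB1, PLCE1 and PLCD1 are shown with the match in capitals, in sense orientation, to let them be compared with the intended target, and their 7 matching bases lie in GRCh38 at chr13:42239591-42239597 for DGKH, chr20:8881863-8881869 for PLCB1, chr10:94328068-94328074 for PLCE1 and chr3:38007652-38007658 (minus strand) for PLCD1.
DGKH: gctgcctttcagGCCTTCAtcatacaaacc
PLCB1: tgctcctgccagGCCTTCAgaaattgcatg
PLCE1: ttctgaactgaaGCCTTCAcacatgtgaga
PLCD1: ggcccccaaattGCCTTCAgccctaacata

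The neighbouring genes of the pathway were taken from a list of 116 genes, of which 112 had a row and 75 passed the filter. Of the 75, 30 rose and 22 fell, 69.3% in all beside 59.9% of all genes tested, with a median log2 fold change of 0.07. Centred on the median log ratio, 25 of them were called higher and 28 lower. A change of at least 2-fold was reached by 4 of the 75, beside 8.83% of all genes tested. PCYT1B, a form of the enzyme that makes CDP-choline, was at 0.266, 0.218 and 0.206 FPKM in Hep3B-Con and at 1.339, 1.502 and 1.508 FPKM in Hep3B-KD. It passed the filter through Hep3B-KD, where it was far above the controls, with a log2 fold change of 2.24 (SE 0.197, adjusted p = 9.44e-05, limma). ITPR2, a receptor for the inositol trisphosphate that phospholipase C releases beside DAG, rose by 1.14, from 2.55 ± 0.0478 to 5.75 ± 0.456 FPKM (SD, n = 3 each, adjusted p = 1.83e-05, limma). PLCXD1, a phospholipase C-like gene, rose by 1.23, from 8.04 ± 0.507 to 19.03 ± 1.297 FPKM (SD, n = 3 each, adjusted p = 1.06e-05, limma). UNC13D, a gene of vesicle priming, passed the filter through Hep3B-Con alone, at 0.899 ± 0.1247 against 0.279 ± 0.0511 FPKM in Hep3B-KD (SD, n = 3 each), and fell by 1.40 (adjusted p = 0.00264, limma).

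**Figure D5:**
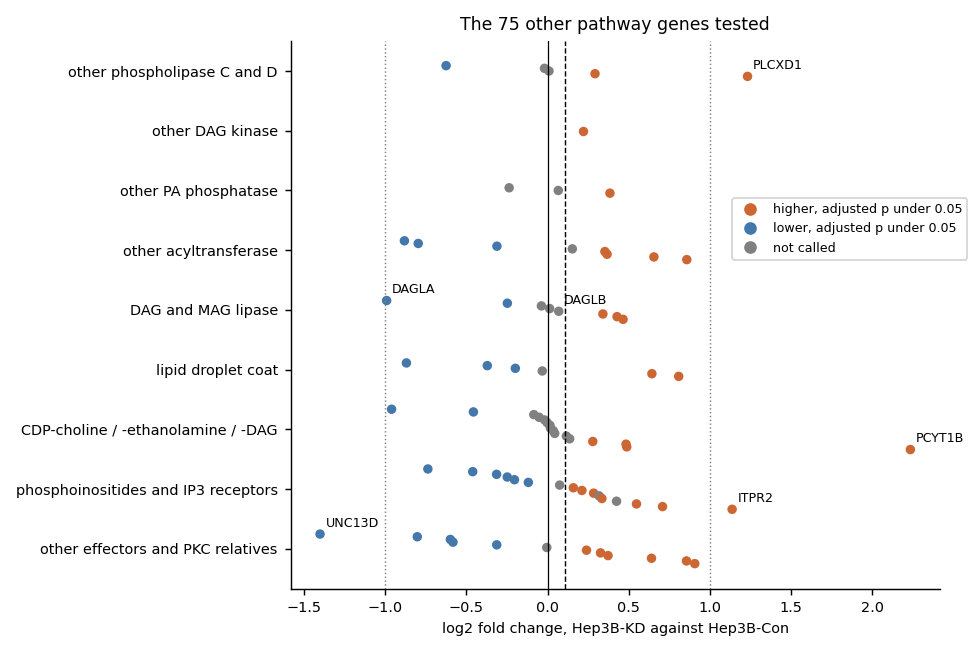
Log2 fold change of the 75 other pathway genes tested, 1 point for each gene, in rows by role and coloured by call. The dashed line is the median of all genes (0.11) and the dotted lines mark a 2-fold change, which PCYT1B, PLCXD1 and ITPR2 passed on the right and UNC13D on the left.

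By role, as in the plot of the 75 pathway genes, the other effectors and relatives of protein kinase C had 6 genes higher and 5 lower of 12 tested, beside 36.1% higher and 23.8% lower of all genes tested. The genes of phosphoinositide supply and inositol trisphosphate receptors had 7 higher and 6 lower of 16. Among the genes of the CDP-choline, CDP-ethanolamine and CDP-diacylglycerol routes, 4 were higher and 2 lower of 16, and 10 were not called. Other phospholipases C and D had 2 higher and 1 lower of 5, the 1 other kinase tested was higher, and of 3 other phosphatidate phosphatase genes 1 was higher. The row labelled lipid droplet coat, which also holds genes that do not encode coat proteins, had 2 higher and 3 lower of 6. Other acyltransferases had 4 higher and 3 lower of 8. In the group of DAG and monoacylglycerol lipases, to which DAGLA belongs, 3 were higher and 2 lower of 8. DAGLB, which carries out the same reaction as DAGLA, was not called, with 6.40 ± 0.159 and 6.72 ± 0.210 FPKM (SD, n = 3 each) and an interval of -0.034 to 0.17 on the log2 scale. MGLL, which breaks down the product of DAGLA, had between 2 and 7 reads in a library and was not tested.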

How the data were processed

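RNA-seq of 6 Hep3B libraries was used, 3 of Hep3B-Con and 3 of Hep3B-KD, grouped by the sample titles. The authors deposited FPKM values per gene and library in 1 table, with 0 columns of other samples. The submitters' processing notes name TopHat2 2.0.12, Bowtie2 2.0.6 and GRCh37. The counter is not given in the sources used here. All 29908 identifiers matched GENCODE release 29 (GRCh38), whose exon lengths turned 100% of values above 0 into whole reads (tolerance 0.01), so depth was known. These reads cover counting error only. Coordinates are from GENCODE 29.

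Genes whose mean reached 0.5 FPKM were tested on log2(FPKM + 0.1) with limma 3.58.1 (lmFit, eBayes with trend) in R 4.3.3, with Benjamini-Hochberg adjustment over 14221 genes, and intervals are 95%. The fit was tested on simulated data, and at the smaller simulated spread the median estimate for genes changed 2-fold lay near the true change. Many changed genes with few reads or a wide spread were missed, and the simulation changed far fewer genes than were called in the data. The pass marks of that test were reset after its earlier runs had failed them. Python 3.11.15, pandas 2.3.3 and matplotlib 3.10.9 handled tables and figures. The members and lists were chosen with earlier results of these data known. By rule, all members could be named, values per library were given for members past a 2-fold change and for the most abundant of each family, and pathway genes were named past a 2-fold change, besides DAGLA, DAGLB and MGLL. PRKCH was named outside this rule, after its values had been seen. Values per library of PRKCD, DGKH, GPAT3, PNPLA3, PLPP1 and PCYT1B, the sums, shares and ratios, and the fits behind single lost calls were picked after the values were seen. Replicates are described as biological, without the source of each, so p-values measure the spread between these libraries. The alternatives changed 1 choice at a time. They used no filter or a filter of 1 FPKM, a pseudocount of 1 or of 0.01, and other scalings (the same FPKM sum, centring by median log ratio, quantiles). Others fitted eBayes with no trend, voom on the recovered reads or the replicate number as a block, or left out each library in turn. Where a library was left out, its group kept 2. One further match to the seed is not reported here.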

Additional observations from a re-analysis of the deposited data

How the results depend on the processing

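Over the 16 alternatives the 40 members gave 636 values, of which 581 kept their direction and side of the threshold, 26 lost a call, 11 gained one and 18 changed sign. For 23 members every alternative kept both direction and call. The number of members called ranged from 25 to 32 around 29. Sign changes concerned genes that were not called. Under quantile normalization the log2 fold changes were -0.14 for PLCE1, -0.061 for PLD1, -0.27 for DGKA, -0.28 for GPAM, 0.026 for AGPAT2, -0.096 for ABHD5, -0.038 for CEPT1 and -0.036 for DAGLB. Centred on the median log ratio they were -0.088 for PLD1, -0.066 for DGKA, -0.076 for GPAM and -0.034 for DAGLB. The cause was not tested. With 1 library left out, the values ranged from -0.017 to 0.047 for PLD1, -0.058 to 0.14 for DGKA, -0.28 to 0.12 for PLPP1, -0.022 to 0.077 for GPAM and -0.19 to 0.059 for AGPAT2. The number of members past a 2-fold change was 3, and 2 with a pseudocount of 1 or quantile normalization. The number of pathway genes past a 2-fold change was 4, and it was 2 with a mean of at least 1 FPKM, where fewer genes were tested, 1 with a pseudocount of 1, and 8 under quantile normalization. It was 6 with no filter, a pseudocount of 0.01, centring on the median log ratio, voom, or Hep3B-KD replicate 3 left out. Without Hep3B-Con replicate 1 or 3 it was 5. At a 2-fold change all genes gave 503 calls with a pseudocount of 1 and 1715 with no filter, against 1256. Same-numbered libraries of the groups did not deviate together (correlations -0.0134, -0.0656 and -0.0011), and none correlated best with its own number. Values this small cannot tell whether same-numbered libraries were prepared together, which the sources used here do not give. With the replicate block 26 members were called, and 7919 genes in all against 8521. The block ended the calls of PLCH1, PRKCE and PRKCZ. Depth limits the 6 members under the filter, the lowest of which had fewer than 10 reads in some libraries.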
